A study of Mus musculus with 6 samples.

Results

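Genes of the B lineage and of the pre-B cell receptor were examined in RNA from sorted mouse bone marrow progenitors. The set holds 9 genes chosen by symbol, namely Vpreb1, Vpreb3, Igll1, Cd79a, Cd79b, Ebf1, Pax5, Blnk and Ms4a1, and all 9 were among the 53677 rows of the deposited expression table. The sorted population is called ST-HSC, short-term hematopoietic stem cells, and was gated on absence of lineage markers, presence of Kit and CD48, and absence of CD150. All mice were C57BL/6J. The 3 dnTCF4 libraries carry the genotype label dnTCF4+/+ and express a dominant-negative TCF4, a transcription factor of the Wnt pathway, and the 3 WT libraries carry the label dnTCF4-/-. Each library was taken as 1 of the 3 mice per genotype that the series text names. The promoter driving dnTCF4, the cells in which it acts, and mouse age and sex: not given in the sources used here.

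A pre-B cell brings its new immunoglobulin heavy chain to the surface with a surrogate light chain, built from a VpreB protein and the lambda5 protein encoded by Igll1. The receptor signals through a heterodimer of CD79A and CD79B, and the adaptor encoded by Blnk couples it to downstream enzymes. Ebf1 and Pax5 encode transcription factors that specify and maintain B cell identity and activate many other genes of the set. Ms4a1 encodes CD20, a surface protein of later B cells. Plasma cells, which secrete antibody, lose Pax5 and Ms4a1 and carry Prdm1, Irf4, Jchain and very large amounts of immunoglobulin RNA.

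Levels are given as RPKM, which divides the reads of a gene by its length and by the size of the library, so genes can be set side by side. The question was how these genes differ in ST-HSC that express dnTCF4. Genes averaging 1 RPKM or more over the 6 libraries were tested with limma on log2(RPKM + 1), and called at a Benjamini-Hochberg adjusted p under 0.05 over all 11326 genes tested. Of the 9 genes, 6 entered that test, while Ebf1, Pax5 and Ms4a1 averaged too little. Limma called 0 of the 6, against 0.3% of all genes tested (0.256% lower and 0.0441% higher in dnTCF4). At an unadjusted p under 0.05 there were 2 of the 6, Cd79a and Blnk, both lower in dnTCF4, against 9.62% of all genes tested (2.1% lower and 7.52% higher).

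Other fits gave nearly the same count. With the replicate number as a block, limma called 0 of the 6 (0.433% of all genes), and 3 (Cd79a, Blnk and Vpreb3) had an unadjusted p under 0.05, against 14.9% of all genes. Limma's voom on reads recovered from the RPKM values called 0 of 5 members (0.14% of all genes), and 0 of 8 with genes of at least 10 reads in all (0.104%). In each, 2 members had an unadjusted p under 0.05, against 9.85% and 8.71% of all genes. The last of these fits with the replicate block, added after the data were seen, called 1 of 8, Cd79a (0.645%), and 4 of 8 had an unadjusted p under 0.05, against 13.5% of all genes. This last fit is called blocked voom in what follows.

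Upstream sequence is shown for Cd79a, the gene with the largest difference among the 6 tested with limma, and for Igll1 and Vpreb3, which belong to the surrogate light chain or resemble it. Each stretch ends before the first GENCODE exon of its gene inside the 250 bases that precede a RefSeq start (GRCm38.p6), and is written 5′ to 3′ on the strand of the gene. Capitals mark matches to any of 3 motifs. The stretches lie at chr7:24897247-24897380 (plus strand), chr16:16863986-16864235 (minus strand) and chr10:75948050-75948299 (plus strand). That of Vpreb3 precedes a RefSeq start but lies inside the GENCODE span of the gene (75943057 to 75949657), not 5′ of it. The windows searched for Vpreb1, Ebf1 and Blnk also lie inside their gene spans.
Cd79a: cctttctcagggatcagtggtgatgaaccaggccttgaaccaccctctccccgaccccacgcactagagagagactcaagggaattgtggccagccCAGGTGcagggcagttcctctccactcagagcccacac
Igll1: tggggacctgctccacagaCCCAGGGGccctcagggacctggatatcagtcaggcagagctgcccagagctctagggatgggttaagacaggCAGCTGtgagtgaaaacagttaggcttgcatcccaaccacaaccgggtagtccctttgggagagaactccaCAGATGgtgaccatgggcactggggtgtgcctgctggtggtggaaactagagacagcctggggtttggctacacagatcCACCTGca
Vpreb3: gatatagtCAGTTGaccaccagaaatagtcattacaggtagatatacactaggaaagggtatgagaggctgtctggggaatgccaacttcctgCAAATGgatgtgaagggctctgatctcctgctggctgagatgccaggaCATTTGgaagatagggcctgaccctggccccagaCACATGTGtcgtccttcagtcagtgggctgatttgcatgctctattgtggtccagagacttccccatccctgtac
The motifs were the EBF core CCCNNGGG, the TCF/LEF core CTTTGA and the E-box CANNTG, each searched on both strands with overlaps allowed. Windows of 250 bases were found for 7 of the 9 genes, all but Cd79b and Ms4a1. In those windows the TCF/LEF core occurred in 0 of the 7 genes, against 13.8% of all 32851 RefSeq windows of this length. The EBF core occurred in Igll1 alone of the 7, against 11.8% of all windows. E-boxes, present in 66.2% of all windows, numbered 2 in the whole window of Cd79a, 3 in that of Igll1 and 5 in that of Vpreb3. A match describes letters in a window, and binding was not measured.

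**Figure D1:**
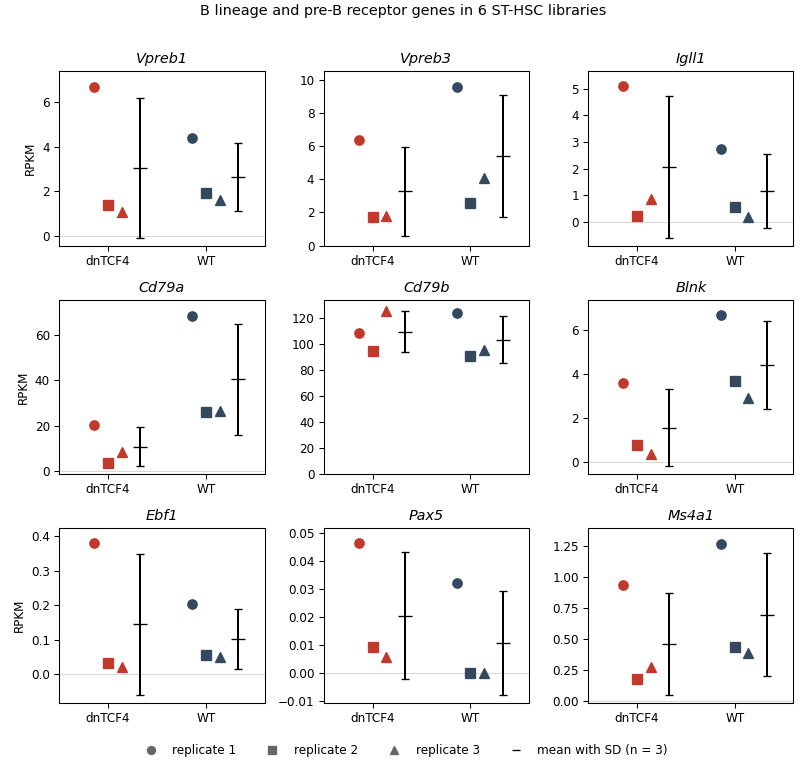
RPKM (y axes, linear) of the 9 genes in dnTCF4 and WT libraries, with symbols for replicate numbers and a bar for the mean with SD (n = 3). Cd79a is the gene whose genotypes do not overlap, and every gene except Cd79b is highest in replicate 1 of both genotypes.

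The signalling chains of the receptor differed from each other. Cd79a (ENSMUSG00000003379.7, GRCm38 chromosome 7, 24897381 to 24902197) was at 20.3, 3.29 and 8.41 RPKM in dnTCF4 replicates 1, 2 and 3, against 68.7, 26.0 and 26.5 RPKM in WT replicates 1, 2 and 3. All 3 dnTCF4 libraries lay below all 3 WT libraries. Its means were 10.7 ± 8.74 RPKM in dnTCF4 and 40.4 ± 24.5 RPKM in WT (SD, n = 3 each), from 532 to 6351 reads per library. The fitted log2 fold change was -1.97 with an SE of 0.62 and a 95% interval of -3.42 to -0.52, and limma did not call it (adjusted p = 0.36, or 0.076 under the replicate block, with an interval of -2.66 to -1.28). Blocked voom gave an adjusted p of 0.026 and a log2 fold change of -2.11. An exact permutation test, two-sided, gave p = 0.1, which is the lowest value possible with 3 against 3. Of the 6 genes that entered the test, Cd79a was the 1 with lower values and no overlap, against 2.26% of all genes tested. Higher values with no overlap were seen in 0 of the 6, against 15.4%. The 3 genes below the filter overlapped between genotypes.

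Cd79b (ENSMUSG00000040592.11, GRCm38 chromosome 11, 106311341 to 106314762), which encodes the partner chain, was at 108.4, 94.2 and 125.3 RPKM in dnTCF4 replicates 1, 2 and 3, against 123.5, 90.7 and 95.3 RPKM in WT replicates 1, 2 and 3. It was the most abundant of the 9 genes in each library, and its genotypes overlapped. Its log2 fold change was 0.086 (95% interval -0.38 to 0.55, limma adjusted p = 0.86), and this sign turned under median ratio scaling (-0.15) and when immunoglobulin genes were removed (-0.12). The ratio of Cd79b to Cd79a RPKM, which library scaling cannot move, was 5.33, 28.6 and 14.9 in dnTCF4 replicates 1, 2 and 3, against 1.80, 3.48 and 3.60 in WT replicates 1, 2 and 3. All 3 dnTCF4 ratios were higher than all 3 WT ratios (log2 difference 2.22, exact permutation p = 0.1, two-sided). Because Cd79b differed little between genotypes, the ratio repeats the Cd79a difference and is not a separate result. It was not among the planned comparisons.

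Blnk (ENSMUSG00000061132.13, GRCm38 chromosome 19, 40928927 to 40994535), the adaptor of the receptor, was at 3.58, 0.771 and 0.358 RPKM in dnTCF4 replicates 1, 2 and 3, against 6.67, 3.67 and 2.92 RPKM in WT replicates 1, 2 and 3. Each dnTCF4 library lay below the WT library of its own number, but dnTCF4 replicate 1 lay above WT replicate 3, so the genotypes overlapped. Its log2 fold change was -1.22 with an SE of 0.47 and a 95% interval of -2.33 to -0.12. Limma did not call it (adjusted p = 0.49, or 0.095 under the replicate block, with an interval of -1.71 to -0.74).

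The surrogate light chain genes varied more between replicate numbers than between genotypes. Vpreb1 (ENSMUSG00000059305.12, GRCm38 chromosome 16, 16868403 to 16870843) was at 6.70, 1.39 and 1.08 RPKM in dnTCF4 replicates 1, 2 and 3, against 4.40, 1.92 and 1.62 RPKM in WT replicates 1, 2 and 3. Igll1 (ENSMUSG00000075370.12, GRCm38 chromosome 16, 16860671 to 16863985), its neighbour on chromosome 16, was at 5.10, 0.225 and 0.854 RPKM in dnTCF4 replicates 1, 2 and 3, against 2.76, 0.576 and 0.184 RPKM in WT replicates 1, 2 and 3. In both genes replicate 1 was the highest library of each genotype, dnTCF4 replicate 1 was the highest of all 6, and the genotypes overlapped. The log2 fold change of Vpreb1 was -0.038 (95% interval -1.27 to 1.20, limma adjusted p = 0.98). That of Igll1 was 0.33 (95% interval -1.20 to 1.85, limma adjusted p = 0.83). Under the replicate block the intervals narrowed to -0.57 to 0.49 for Vpreb1 and -0.28 to 0.94 for Igll1, and both still held 0.

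The reads of Vpreb1 are uncertain because Vpreb2 is a near-identical copy. Their GENCODE transcripts match at 739 of 759 aligned bases (97.4%). A further 108 bases of Vpreb1 exons lie in Top3b exons on the opposite strand, and the library kit does not mark strand. Vpreb2, named after its values were seen, was at 8.50, 0.231 and 0.122 RPKM in dnTCF4 replicates 1, 2 and 3, against 7.23, 0.151 and 0.172 RPKM in WT replicates 1, 2 and 3, again highest in replicate 1 of both genotypes.

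Vpreb3 (ENSMUSG00000000903.3, GRCm38 chromosome 10, 75943057 to 75949657), which encodes a VpreB-like protein that binds newly made immunoglobulin chains inside the cell, was at 6.39, 1.71 and 1.76 RPKM in dnTCF4 replicates 1, 2 and 3, against 9.59, 2.58 and 4.09 RPKM in WT replicates 1, 2 and 3. Each dnTCF4 library lay below the WT library of its own number, and the genotypes overlapped. Its log2 fold change was -0.60 (95% interval -1.81 to 0.61, limma adjusted p = 0.71). Under the replicate block the whole interval lay below 0 and the adjusted p was 0.21.

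The factors that define the lineage were barely read. Ebf1 (ENSMUSG00000057098.14, GRCm38 chromosome 11, 44617317 to 45008091) was at 0.380, 0.0333 and 0.0196 RPKM in dnTCF4 replicates 1, 2 and 3, against 0.203, 0.0564 and 0.0484 RPKM in WT replicates 1, 2 and 3, from 234, 36 and 11 reads in dnTCF4 and 126, 34 and 32 reads in WT. Pax5 (ENSMUSG00000014030.15, GRCm38 chromosome 4, 44524757 to 44710487) had 26, 9 and 3 reads in dnTCF4 replicates 1, 2 and 3, against 18, 0 and 0 reads in WT replicates 1, 2 and 3. Its level was 0.0466, 0.00917 and 0.00591 RPKM in dnTCF4, against 0.0320, 0 and 0 RPKM in WT. A count of 0 still allows up to 3 reads, or 0.00549 RPKM in WT replicate 2 and 0.00500 RPKM in WT replicate 3, counting error only. Of the Pax5 exons, 636 bases lie in 5730488B01Rik and 125 in Gm12462 on the opposite strand. Ms4a1 (ENSMUSG00000024673.9, GRCm38 chromosome 19, 11249675 to 11266241) was at 0.935, 0.175 and 0.273 RPKM in dnTCF4 replicates 1, 2 and 3, against 1.27, 0.437 and 0.389 RPKM in WT replicates 1, 2 and 3, lower in dnTCF4 within each number and overlapping between genotypes. A limma fit of all genes with no filter gave adjusted p-values of 0.92 for Ebf1, 0.84 for Pax5 and 0.82 for Ms4a1. The log2 fold change of Pax5 was 0.014 in that fit, but 2.28 in voom at 10 reads or more (adjusted p = 0.68) and 1.37 in blocked voom (adjusted p = 0.49).

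Within a genotype, the levels spanned a wide range. In dnTCF4 the mean RPKM ran from Cd79b (109.3) through Cd79a (10.7), Vpreb3 (3.29), Vpreb1 (3.05), Igll1 (2.06), Blnk (1.57), Ms4a1 (0.461) and Ebf1 (0.144) to Pax5 (0.0205). Only the first pair of neighbours in that order, Cd79b and Cd79a, did not overlap. In WT the order ran from Cd79b (103.2) through Cd79a (40.4), Vpreb3 (5.42), Blnk (4.42), Vpreb1 (2.65), Igll1 (1.17), Ms4a1 (0.698) and Ebf1 (0.103) to Pax5 (0.0107). There the neighbours from Vpreb3 to Ms4a1 overlapped and the others did not.

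**Figure D2:**
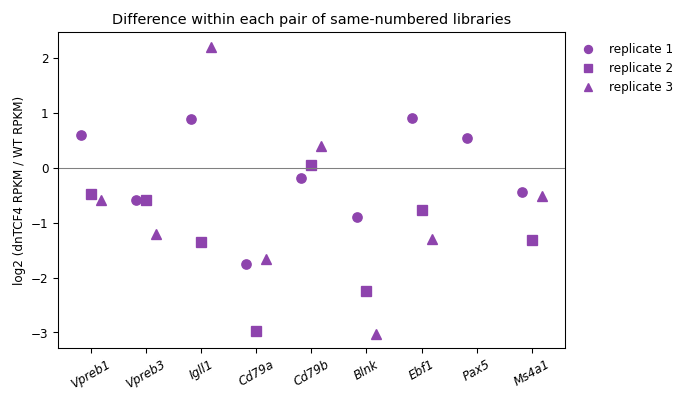
log2 ratio of dnTCF4 to WT RPKM (y axis) for each gene within the pairs of libraries that share a replicate number. Cd79a, Blnk, Vpreb3 and Ms4a1 are below 0 in all pairs, Vpreb1 and Ebf1 are above 0 in replicate 1 alone, and Pax5 has 1 point because WT replicates 2 and 3 had 0 reads.

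Libraries of the same number were also compared with each other. Values were lower in dnTCF4 in every pair for 4 of the 9 genes (Cd79a, Blnk, Vpreb3 and Ms4a1). That was 3 of the 6 that entered the test, against 4.78% of all genes tested. Values were higher in every pair for 1 of the 9, Pax5, on the few reads given above. That was 0 of the 6 that entered the test, against 37.3% of all genes tested. Cd79a in dnTCF4 stood at 29.6%, 12.6% and 31.7% of its WT level in pairs 1, 2 and 3, and Blnk at 53.7%, 21.0% and 12.3%. Vpreb3 stood at 66.6%, 66.3% and 43.1%, and Ms4a1 at 73.8%, 40.0% and 70.2%. For Igll1 the same shares were 184.9%, 39.1% and 463.2%, so its direction differed between pairs.

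Replicate 1 was the highest library of both genotypes for 8 of the 9 genes, all except Cd79b. That was 5 of the 6 that entered the test, against 5.79% of all genes tested. Among genes tested, that pattern was also seen for 6 of 9 pro-B and pre-B, 6 of 9 mature B, 4 of 4 T cell and 4 of 8 plasmacytoid dendritic cell markers. It was seen for 4 of 10 recombination genes, 4 of 18 early B regulators and 5 of 19 genes of receptor signalling. The counts were 3 of 6 for surface genes of the gate list described below, 2 of 5 for natural killer, 1 of 5 for megakaryocyte and 3 of 15 for plasma cell markers. They were 0 of 10 for neutrophil, 0 of 8 for monocyte and macrophage and 0 of 4 for erythroblast markers, and 0 of 5 for immunoglobulin constant genes with Jchain. Rag1, a subunit of the V(D)J recombinase, was at 0.612, 0.0491 and 0.0659 RPKM in dnTCF4, against 0.286, 0.0564 and 0.0559 RPKM in WT. Il7r, the interleukin-7 receptor chain of lymphoid progenitors, was at 9.85, 2.98 and 3.65 RPKM in dnTCF4, against 9.40, 2.36 and 1.49 RPKM in WT. Y-linked Ddx3y, named after its values were seen, had 24.8 RPKM in dnTCF4 replicate 1 and 30.5 RPKM in WT replicate 1 and was at 0 in replicates 2 and 3, and its part in the pattern was not tested. With replicates 2 and 3 alone, the log2 fold change was -2.10 for Cd79a (limma adjusted p = 0.40) and -1.46 for Blnk (limma adjusted p = 0.32).

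**Figure D3:**
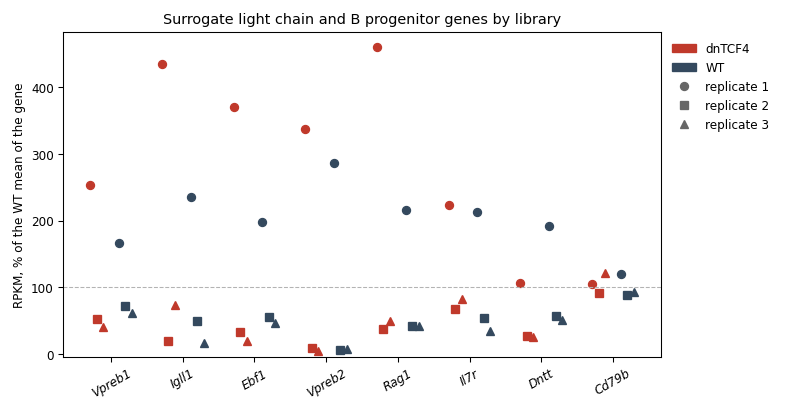
RPKM of surrogate light chain and B progenitor genes in each library, as a percentage of the WT mean of the gene (y axis), with Cd79b beside them. Replicate 1 (circles) is the highest library of its genotype for every gene drawn, except Cd79b in dnTCF4.

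Wider lists of B lineage genes were set beside the 9. In bulk RNA, fewer cells of a type and less RNA per cell cannot be told apart. Of 18 early B regulators tested, limma called 0, and 2 had an unadjusted p under 0.05, both lower in dnTCF4. Over all genes tested, 9.62% had such a p (2.1% lower and 7.52% higher in dnTCF4), the share to set beside each list below. The median fold change of the regulators was 0.16 on the log2 scale, against 0.14 over all genes. Pou2af1, a B cell coactivator of octamer-binding factors, was at 3.19, 1.26 and 1.33 RPKM in dnTCF4, against 15.2, 7.80 and 7.19 RPKM in WT, with no overlap (log2 fold change -1.91). Its limma adjusted p was 0.12, and it was 0.020 under the replicate block and 0.0055 in blocked voom. Irf4, a factor of pre-B and plasma cells that is also counted in the plasma cell list below, was at 0.449 ± 0.0847 RPKM in dnTCF4 and 1.72 ± 0.239 RPKM in WT (limma adjusted p = 0.079). It was called under median ratio scaling (adjusted p = 0.049) and in blocked voom (adjusted p = 0.027). Foxo1, which acts upstream of the Rag genes and Il7r, was at 1.34 ± 0.452 RPKM in dnTCF4 and 0.819 ± 0.215 RPKM in WT (limma adjusted p = 0.61).

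Of 10 recombination genes tested, limma called 0, with 0 at an unadjusted p under 0.05 and a median of 0.12. The members with the smallest p, Xrcc5, Xrcc4 and Nhej1, serve DNA end joining in all cells and had log2 fold changes of 0.41, 0.37 and 0.27. Dntt, which adds bases at immunoglobulin joints, was at 354.2, 91.1 and 86.6 RPKM in dnTCF4, against 642.7, 190.2 and 167.8 RPKM in WT. The genotypes overlapped, but Dntt in dnTCF4 stood at 55.1%, 47.9% and 51.6% of its WT level in pairs 1, 2 and 3. Its limma adjusted p was 0.69 without the pairing and 0.12 under the replicate block, where the SE fell from 0.69 to 0.18. Rag2 was at 8.74 ± 3.10 RPKM in dnTCF4 and 9.02 ± 4.84 RPKM in WT (limma adjusted p = 0.99).

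Of 19 genes of receptor signalling tested, limma called 0, 3 had an unadjusted p under 0.05, and the median was 0.0030. Btk, the kinase that works with the Blnk adaptor, was at 94.4 ± 15.3 RPKM in dnTCF4 and 62.6 ± 7.48 RPKM in WT (limma adjusted p = 0.42). Lyn, a kinase that phosphorylates the CD79 chains, was at 12.4 ± 2.62 RPKM in dnTCF4 and 8.33 ± 1.02 RPKM in WT (limma adjusted p = 0.49). Fcgr2b, an inhibitory Fc receptor, was at 6.98 ± 0.504 RPKM in dnTCF4 and 12.2 ± 0.910 RPKM in WT (limma adjusted p = 0.18). All 3 genes are also used by myeloid cells. Under median ratio scaling, where all genes had a median of -0.052, the medians were -0.067 for early B regulators, -0.074 for recombination genes and -0.19 for receptor signalling.

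Of 9 pro-B and pre-B markers and 9 mature B markers tested, limma called 0, with 1 and 2 at an unadjusted p under 0.05 and medians of 0.016 and -0.26. The lists share genes, and Ly6d was counted at that p in both. Blocked voom called 1 of 14 (Myl4) and 1 of 15 (Fcrla), both lower in dnTCF4, against 102 called lower among all 21091 genes in that fit. Ly6d, a surface marker of B-biased lymphoid progenitors, was at 127.6, 17.1 and 17.9 RPKM in dnTCF4, against 268.5, 115.4 and 120.0 RPKM in WT. Its genotypes overlapped through dnTCF4 replicate 1 (limma adjusted p = 0.45, or 0.11 under the replicate block). Fcrla, an Fc receptor-like protein of B cells, was at 2.11 ± 0.912 RPKM in dnTCF4 and 8.15 ± 1.86 RPKM in WT with no overlap (limma adjusted p = 0.11, or 0.038 in blocked voom). Sox4, a factor that pro-B cells need, had a log2 fold change of 0.22, and H2-Ob, a subunit of a class II modulator, of 0.54.

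**Figure D4:**
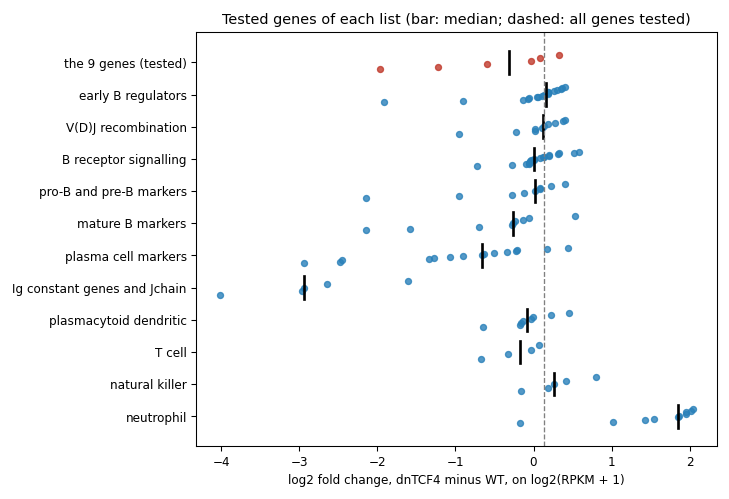
log2 fold changes (x axis, dnTCF4 minus WT on log2(RPKM + 1)) of the tested genes of each list, with a bar for the list median and a dashed line for the median of all genes tested. The list of immunoglobulin constant genes and Jchain has the lowest median (-2.94, the value of Jchain). Neutrophil markers have the highest (1.85), and the 6 tested members of the set span -1.97 to 0.33.

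Plasma cell markers had lower summed levels in all dnTCF4 libraries, as Cd79a did. Of 15 tested, limma called 0, and the median was -0.67. At an unadjusted p under 0.05 there were 9, all of them lower in dnTCF4, against 2.1% of all genes tested. The replicate block called 1 of the 15 (Mzb1, lower in dnTCF4), against 0.433% of all genes tested. Blocked voom called 7 of the 12 in its fit, all lower in dnTCF4, against 102 called lower among all 21091 genes in that fit. The summed level of the 16 markers was 442.9 to 813.8 RPKM in dnTCF4 libraries and 2804 to 7979.8 RPKM in WT libraries. Jchain alone made 64.1% to 80.7% of that sum in dnTCF4 and 88.5% to 94.8% in WT, and the other 15 markers, a sum added after the data were seen, came to 146.9 to 202.2 RPKM in dnTCF4 libraries and 309.4 to 411.6 RPKM in WT libraries. Jchain, which joins antibody units, was at 611.5, 284.1 and 614.7 RPKM in dnTCF4, against 7568, 2592 and 2482 RPKM in WT (limma adjusted p = 0.0998, or 0.0076 in blocked voom). Slamf7, a surface receptor of plasma cells, was at 2.89 ± 0.474 RPKM in dnTCF4 and 8.99 ± 2.58 RPKM in WT (limma adjusted p = 0.0998, or 0.022 in blocked voom). Ighm and Igkc, the constant genes of the mu heavy and kappa light chains, fell, with log2 fold changes of -2.65 and -2.96 (limma adjusted p = 0.042 for each). Both calls held in the 3 voom fits and under the replicate block, and both were lost under median ratio scaling (0.052 and 0.055), at a mean of 5 RPKM or more (0.053 and 0.054), with no filter (0.27 and 0.30; 0.43 for each with the block) and with replicates 2 and 3 alone (0.34 for each). Leaving out 1 library gave adjusted p-values of 0.038 to 0.16 for Ighm, called only when dnTCF4 replicate 2 was left out, and 0.057 to 0.13 for Igkc, called in none of the 6. Immunoglobulin genes held 3.27% to 6.33% of summed RPKM in dnTCF4 libraries and 25.5% to 44.1% in WT libraries. The part of antibody-secreting cells in the Cd79a and Blnk values was not tested.

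**Figure D5:**
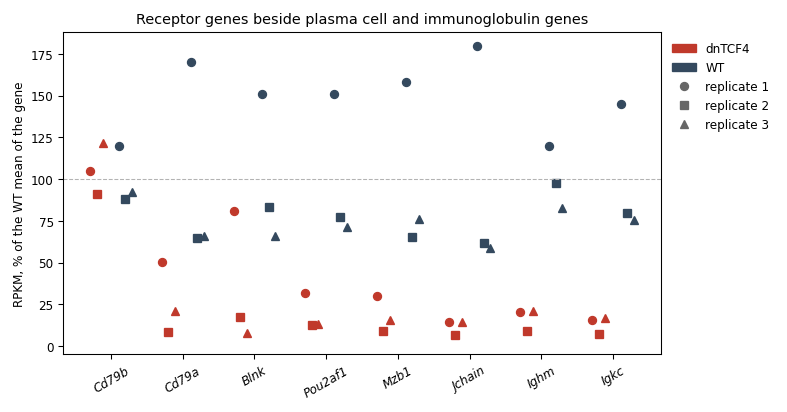
RPKM of receptor, plasma cell and immunoglobulin genes in each library, as a percentage of the WT mean of the gene (y axis). Cd79b and Blnk overlap between the genotypes, and the other 6 genes are lower in all 3 dnTCF4 libraries than in any WT library.

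For each tested member, the genes with the most similar profile over the 6 libraries were sought among 11088 tested genes outside the set and the immunoglobulin genes, using the root mean square difference of centred log2(RPKM + 1) values. For Cd79a, whose own root mean square was 1.27, these were Mzb1 (0.32), a chaperone gene of plasma and marginal zone B cells, and Btla (0.37), an inhibitory lymphocyte receptor. Mzb1 was at 41.0, 12.3 and 21.0 RPKM in dnTCF4, against 214.4, 88.5 and 103.4 RPKM in WT, with a limma adjusted p of 0.14, or 0.031 under the replicate block. Btla was at 2.27 ± 1.99 RPKM in dnTCF4 and 10.4 ± 5.91 RPKM in WT, with no overlap. Its limma adjusted p was 0.26, or 0.032 under the replicate block. For Vpreb1 they were Bfsp2 (0.17) and the B cell kinase gene Blk (0.21). For Vpreb3 they were Mn1 (0.24) and the T cell kinase gene Lck (0.24). For Igll1 they were Xcl1 (0.26) and Gm6637 (0.27). For Cd79b, which varied little itself (0.19), they were Rnase6 (0.056) and Fhit (0.062). For Blnk they were the T cell receptor joining segments Trbj1-4 (0.16) and Trbj1-7 (0.29), which are very short genes.

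The gate and other cell types were read in the same libraries. Tcf7l2, whose product is the TCF4 of the Wnt pathway, was at 2.31 ± 0.425 RPKM in dnTCF4 and 1.51 ± 0.202 RPKM in WT (limma adjusted p = 0.52), and whether transgene reads count there is not known. Kit was at 69.1 ± 31.2 RPKM in dnTCF4 and 64.2 ± 18.3 RPKM in WT, Cd48 at 1195 ± 208.7 RPKM in dnTCF4 and 900.9 ± 90.6 RPKM in WT, and Slamf1, which encodes the excluded CD150, at 0.969 ± 0.218 RPKM in dnTCF4 and 0.931 ± 0.191 RPKM in WT. These 3 genes were part of a list of 7 surface genes, called the gate list here. It also held Ly6a, Flt3, Cd34 and Ptprc, which the gate given above does not name. Of the 7, Cd48, Ptprc and Cd34 had the smallest p (log2 fold changes 0.40, 0.34 and -0.18). Limma called 0 members of the gate list and of the 7 lists of other cell types. At an unadjusted p under 0.05 there were 8 of 10 neutrophil, 3 of 4 erythroblast and 3 of 8 monocyte and macrophage markers tested. There were also 2 of 5 megakaryocyte and 1 of 5 natural killer markers. All were higher in dnTCF4, against 7.52% of all genes tested. In the gate, T cell and plasmacytoid dendritic cell lists, 0 genes had such a p. Median ratio scaling moved the list medians from 1.85 to 1.63 for neutrophil and from 1.15 to 0.99 for erythroblast markers. The medians moved from 0.30 to -0.058 for monocyte and macrophage, from 0.10 to -0.038 for megakaryocyte and from 0.26 to 0.13 for natural killer markers. The median of all genes was -0.052 under that scaling. Blocked voom called 4 of the 10 neutrophil markers in its fit (S100a8, S100a9, Camp and Lcn2), with adjusted p-values of 0.012, 0.018 and 0.025 for the first 3. It also called 2 of 8 erythroblast markers (Rhag, 0.011, and Hbb-bt, 0.022). All of these were higher in dnTCF4, against 34 called higher among all 21091 genes in that fit. It called 0 genes of the other lists of other cell types and of the gate list.

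Summed T cell markers were at 23.0 to 92.5 RPKM in dnTCF4 libraries and 32.2 to 102.0 RPKM in WT libraries, and summed plasmacytoid dendritic cell markers at 40.3 to 130.9 RPKM in dnTCF4 libraries and 55.9 to 104.7 RPKM in WT libraries. Summed neutrophil markers were at 3078 to 7611 RPKM in dnTCF4 libraries and 621.5 to 3128 RPKM in WT libraries, and erythroblast markers at 45.3 to 91.5 RPKM in dnTCF4 libraries and 17.0 to 28.0 RPKM in WT libraries. Megakaryocyte markers summed to 177.3 to 194.6 RPKM in dnTCF4 libraries and 91.9 to 116.2 RPKM in WT libraries, monocyte and macrophage markers to 278.0 to 376.4 RPKM in dnTCF4 libraries and 285.0 to 372.7 RPKM in WT libraries, and natural killer markers to 779.4 to 1185 RPKM in dnTCF4 libraries and 1008 to 1239 RPKM in WT libraries. The genes with the smallest p had log2 fold changes of -0.67 for Trbc1, -0.32 for Lck and 0.071 for Trac among T cell genes. They were 0.45 for Runx2, -0.13 for Tcf4 (a different gene from Tcf7l2, despite its symbol) and -0.64 for Cox6a2 among plasmacytoid dendritic cell genes. They were 2.04 for S100a8, 2.02 for S100a9 and 1.96 for Camp among neutrophil genes, and 1.81 for Rhag, 1.58 for Hbb-bt and 0.73 for Klf1 among erythroblast genes. They were 0.42 for Klrb1c, 0.80 for Gzmb and -0.16 for Nkg7 among natural killer genes. They were 0.90 for Adgre1, 0.56 for Vcam1 and 0.50 for Cd68 among monocyte and macrophage genes, and 1.34 for Pf4, 0.72 for Gp9 and 0.10 for Itga2b among megakaryocyte genes. No gene of these lists was at 0 in all 6 libraries, and the part of these cell types in the values of the 9 genes was not tested.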

How the data were processed

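PolyA RNA of 3 dnTCF4 and 3 WT samples was sequenced after SMART-Seq v4 and Nextera XT library preparation, per the labels' protocols. The authors deposited 1 table of RPKM values with a column per library. The submitters' processing notes name the tools STAR, featureCounts, edgeR and DESeq2, with builds GRCm38 and mm10. Which tool did what was not given in the sources used here. Multiplied by GENCODE M21 exon lengths, RPKM values came out as whole reads (tolerance 0.02 of a read) for 93.8% to 94.5% of genes checked. This gave 57400000 to 110900000 counted reads per dnTCF4 library and 61800000 to 67700000 per WT library. Reads are PCR copies without molecular identifiers, so limits from counts cover counting error only.

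Limma 3.58.1 in R 4.3.3 was fitted on genotype (eBayes with trend, two-sided, pseudocount 1), a scale that understates fold changes of low genes. The fit was tested on simulated data that held no replicate effect, so that test does not give its power for the genes named here. Deviations from the group means correlated between libraries of the same number (r = 0.17, 0.35 and 0.30 across genes for numbers 1, 2 and 3, each above the bound of 0.1), so numbers were taken as pairs. Values with the replicate block are given where it changed a call of a gene or list named, and for some other genes. No libraries were duplicates (chi-square per gene at least 220). Named are the 9 members, the 3 genes with the smallest p of each list and its called genes, a set of defining genes (1 of them is not reported here), and the 2 genes most like each tested member. Mzb1 entered by likeness, and Vpreb2 and Ddx3y after their values were seen. The members, lists and tests were chosen with earlier results of these data known. Sequences are from RefSeq. Tables and plots used Python 3.11.15, pandas 2.3.3 and matplotlib 3.10.9.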

Additional observations from a re-analysis of the deposited data

How the results depend on the processing

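Limma called 0 members in every setting except 1: voom on genes with at least 10 reads and the replicate block, where it called 1 (Cd79a). Over all settings, the log2 fold change was -2.55 to -1.40 for Cd79a, -2.05 to -0.87 for Blnk and -1.08 to -0.16 for Vpreb3. Leaving out 1 library at a time gave -2.55 (without dnTCF4 replicate 1) to -1.40 (without dnTCF4 replicate 2) for Cd79a, with adjusted p-values of 0.25 to 0.69, and -1.75 (without dnTCF4 replicate 1) to -0.87 (without dnTCF4 replicate 3) for Blnk, with 0.20 to 0.98. Over all genes, 34 (29 lower and 5 higher in dnTCF4) were called. The count was 29 (26 lower and 3 higher in dnTCF4) with a pseudocount of 0.1, 6 (5 lower and 1 higher in dnTCF4) with no filter, 24 (23 lower and 1 higher in dnTCF4) at a mean of 5 RPKM or more, 18 (18 lower and 0 higher in dnTCF4) under median ratio scaling, 49 (42 lower and 7 higher in dnTCF4) with the replicate block, and 10 (10 lower and 0 higher in dnTCF4) with replicates 2 and 3 alone. Voom gave 14 (14 lower and 0 higher in dnTCF4), 22 (20 lower and 2 higher in dnTCF4) at 10 reads or more, and 136 (102 lower and 34 higher in dnTCF4) at 10 reads or more with the replicate block. With immunoglobulin genes removed limma called 0 (603 at an unadjusted p under 0.05), and with no filter and the replicate block 0 (2969). Leaving out 1 library gave 7 to 34 calls, 7 to 34 lower and 0 to 1 higher, the fewest without WT replicate 1. The voom fits at 10 reads or more and the unfiltered fit with the block were chosen after seeing the data. The replicate block changed no other member's call, and its calls among the other named genes stand beside their values. The cause of these shifts was not tested.

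Median ratio scaling moved the overall median from 0.14 to -0.052, and removing immunoglobulin genes to -0.021. Signs turned under median ratio scaling to -0.15 for Cd79b, -0.047 for Trac, -0.038 for Itga2b, -0.20 for Rag2 and -0.20 for Kit, with immunoglobulin genes removed to -0.12 for Cd79b, -0.033 for Trac, -0.018 for Itga2b, -0.17 for Rag2 and -0.17 for Kit, with replicates 2 and 3 alone to -0.28 for Kit, and in voom at 10 reads or more to -0.43 for Ebf1. Leaving out 1 library turned the sign of 11 genes, with log2 fold changes of -0.016 to 0.22 for Cd79b, -1.69 to 0.30 for Cox6a2, -0.019 to 0.81 for Igll1, -0.043 to 1.02 for Il7r, -0.014 to 0.17 for Itga2b, -0.27 to 0.44 for Kit, -0.87 to 0.18 for Lck, -0.28 to 0.040 for Nkg7, -0.23 to 0.39 for Rag2, -0.25 to 0.23 for Trac and -0.63 to 0.31 for Vpreb1. Depth limits Ebf1 and Pax5 most, at 0 to 234 reads per library.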
